A study of Homo sapiens with 30 samples.

Results

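The comparison described here sets SW1783 cells given the ethanol extract of Soshiho-tang at 500 µg/mL against SW1783 cells given DMSO as vehicle. SW1783 is an established human astrocytoma line, and Soshiho-tang is a multi-herb decoction of traditional Korean medicine, which the series groups among decoctions linked to Qi. Cells were exposed for 24 h and gene expression was read by RNA sequencing. The 3 libraries of each group were picked by the agent and dose that the labels name, 6 of the 30 libraries in the series, and 16872 of 60675 gene entries passed a filter on low counts and were tested. The extract group received the aqueous ethanol extract at 500 µg/mL. The vehicle group received DMSO, for which the sample labels give 0.1% and the series description another concentration. A further 3 libraries from cells given 20 µg/mL of the same extract were used to see which changes were absent at the low concentration. All 3 groups share the cell line, the medium and the exposure time, and all come from 1 tumour line, so no other line or primary astrocyte was measured. Libraries that failed for low RNA were left out by the submitters, per the series description. Nothing in the labels tells whether the 3 libraries of a group are separate cultures, so each p-value rests on a spread between libraries that may be technical only.

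The genes below fall into a few well-known programmes. In the integrated stress response, kinases that sense amino acid shortage, misfolded protein or other stress slow translation in general while the transcription factor ATF4 is made, and ATF4 raises genes for amino acid supply, tRNA charging and, under lasting stress, cell death. The transcription factor NRF2 is freed from its inhibitor by oxidants and electrophiles and raises genes for glutathione, thioredoxin, heme breakdown and iron storage, while TFEB and TFE3 raise lysosomal genes. Cells of mesenchymal character, as many astrocytoma lines are, also make large amounts of collagen and other matrix proteins under the control of TGF-beta and of the mechanically regulated factors YAP and SRF.

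Libraries held estimated counts of 26.0 to 30.1 M each at 500 µg/mL, against 24.1 to 25.6 M in vehicle, and 26.7 to 32.9 M at 20 µg/mL. Levels are given as CPM, the count of a gene relative to the TMM-scaled total of its library. By their column names the vehicle libraries form their own set, although the sample titles place all 9 libraries in the same batch, E. They also held 10.5% to 10.7% mitochondrially encoded counts, where the Soshiho-tang libraries held 6.93% to 7.79% at 500 µg/mL and 6.37% to 9.03% at 20 µg/mL. Replicate 3 at 20 µg/mL stood apart from replicates 1 and 2 of its group, and counts without it are given with the processing alternatives. The label astrocytoma was checked against defining markers: GFAP, the intermediate filament of astrocytes, and S100B, a glial calcium-binding protein, stayed under 0.3 CPM in all 9 libraries, and AQP4, SOX2 and FABP7 were at or near 0. Of 14 glial markers 6 passed the filter, against 12 of 12 mesenchymal markers. The whole glial list, which includes VIM, summed to 6550 to 6923 CPM at 500 µg/mL and 7900 to 8062 CPM in vehicle. These sums exceed VIM alone, so not every other glial marker was near 0. VIM, the mesenchymal filament vimentin, which astrocytes also make, stood at 4570.0, 4352 and 4264 CPM at 500 µg/mL, against 5095, 5034 and 5022 CPM in vehicle (-0.20 ± 0.063, edgeR adjusted p = 0.0128), and it missed the threshold when replicate 3 at 500 µg/mL was left out (edgeR adjusted p = 0.0549). Of 8 endothelial markers 4 passed the filter, with the whole list summing to 40.4 to 42.5 CPM at 500 µg/mL and 34.5 to 40.8 CPM in vehicle. Most of that sum was KDR, a VEGF receptor, while the junction genes CDH5 and CLDN5 were at or near 0. Of 10 leukocyte markers 3 passed, and the list summed to 198 to 229 CPM at 500 µg/mL and 185 to 210 CPM in vehicle. Nearly all of it was CD68, a lysosomal protein that other cells also make, while the T cell gene CD3E was at 0 in all 9 libraries. PTPRC, the leukocyte phosphatase CD45, stood at 4.75, 4.16 and 4.56 CPM at 500 µg/mL, against 10.1, 10.5 and 10.6 CPM in vehicle (-1.21 ± 0.080, edgeR adjusted p = 9.37e-11), and it was called higher at 20 µg/mL, with 12.9, 12.3 and 12.2 CPM (0.26).

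As examples of known regulatory motifs, 6 promoters are printed, each from 250 bases before to 50 bases after the annotated start (RefSeq, GRCh38.p14), 5′ to 3′ on the strand of the gene. They were picked only among list members called higher, or called lower for the mitosis list, whose promoter holds the motif searched for. Called members without the motif, some with larger changes, were passed over, so the printed promoters do not show how common a motif is. CHAC1 (chr15:40953221-40953520, plus strand) and ASNS (chr7:97872359-97872658, minus strand) belong to the stress response and amino acid lists and carry, in capitals, TGATGNAA, the core of the C/EBP-ATF response element to which ATF4 binds. TXNRD1 (chr12:104215529-104215828, plus strand) and GCLM (chr1:93909381-93909680, minus strand) carry the core TGACNNNGC of the antioxidant response element, which overlaps in part with the AP-1 motif. MCOLN1 (chr19:7522374-7522673, plus strand) carries TCACGTGA, the palindrome of the lysosomal CLEAR motif around the E-box CACGTG. MKI67 (chr10:128126374-128126673, minus strand) carries TTTGAA, the cell cycle homology region of late cell cycle genes. Both strands were searched, so CHAC1, GCLM and the downstream copy in TXNRD1 show the reverse complement.
CHAC1 promoter: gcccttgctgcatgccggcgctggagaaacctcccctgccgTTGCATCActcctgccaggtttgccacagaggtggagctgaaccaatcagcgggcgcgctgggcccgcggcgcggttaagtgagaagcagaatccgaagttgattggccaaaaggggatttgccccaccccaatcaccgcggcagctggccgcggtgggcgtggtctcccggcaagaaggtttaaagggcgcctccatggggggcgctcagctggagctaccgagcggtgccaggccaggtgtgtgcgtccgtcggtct
ASNS promoter: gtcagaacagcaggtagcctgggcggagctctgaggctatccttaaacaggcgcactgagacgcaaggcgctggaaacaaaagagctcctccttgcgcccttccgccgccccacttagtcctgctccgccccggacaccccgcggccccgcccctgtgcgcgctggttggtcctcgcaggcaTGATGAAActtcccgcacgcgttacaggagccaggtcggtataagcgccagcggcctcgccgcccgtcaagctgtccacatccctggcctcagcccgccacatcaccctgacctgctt
TXNRD1 promoter: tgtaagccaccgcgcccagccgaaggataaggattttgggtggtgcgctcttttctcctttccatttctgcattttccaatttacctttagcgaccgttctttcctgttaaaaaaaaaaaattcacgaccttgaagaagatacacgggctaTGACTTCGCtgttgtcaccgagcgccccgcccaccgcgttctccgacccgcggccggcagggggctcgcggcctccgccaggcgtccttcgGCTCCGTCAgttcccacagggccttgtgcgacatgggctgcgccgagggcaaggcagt
GCLM promoter: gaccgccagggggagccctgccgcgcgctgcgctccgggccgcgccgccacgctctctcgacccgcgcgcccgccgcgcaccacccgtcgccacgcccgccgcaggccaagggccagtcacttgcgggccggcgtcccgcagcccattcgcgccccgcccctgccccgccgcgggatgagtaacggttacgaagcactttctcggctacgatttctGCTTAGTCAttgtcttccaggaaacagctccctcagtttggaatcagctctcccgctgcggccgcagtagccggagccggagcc
MCOLN1 promoter: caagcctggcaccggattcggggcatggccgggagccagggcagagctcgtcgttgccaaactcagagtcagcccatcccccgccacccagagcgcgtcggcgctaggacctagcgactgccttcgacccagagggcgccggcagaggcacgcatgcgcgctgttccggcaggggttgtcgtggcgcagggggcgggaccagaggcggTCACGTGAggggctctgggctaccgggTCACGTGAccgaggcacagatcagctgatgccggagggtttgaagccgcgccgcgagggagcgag
MKI67 promoter: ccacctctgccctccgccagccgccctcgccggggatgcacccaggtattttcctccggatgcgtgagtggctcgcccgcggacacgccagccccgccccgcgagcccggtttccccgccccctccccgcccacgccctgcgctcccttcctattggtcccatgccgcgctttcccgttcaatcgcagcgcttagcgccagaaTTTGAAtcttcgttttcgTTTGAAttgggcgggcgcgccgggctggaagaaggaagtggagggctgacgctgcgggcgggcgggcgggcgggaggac
TGATGNAA was present in 7 of the 31 promoters found for the integrated stress, amino acid synthesis and amino acid transport lists (22.6%), against 3.67% of all 27305 promoters. TGACNNNGC was present in 8 of 32 promoters of the antioxidant, heme and iron lists (25.0%), against 13.6% of all. TCACGTGA stood in 5 of 28 lysosome and autophagy promoters (17.9%), against 1.04% of all, and TTTGAA in 20 of 27 mitosis promoters (74.1%), against 15.4% of all. The lists gather genes of known programmes, so a share above that of all promoters describes the lists and not the response in these cells. Among promoters of members called higher in these data, TGATGNAA was present in 5 of 23 (21.7%) and TGACNNNGC in 6 of 21 (28.6%). TCACGTGA was present in 2 of 13 promoters of members called higher (15.4%), and TTTGAA in 16 of 23 promoters of members called lower (69.6%). A match describes letters in a window of 300 bases and is not a measured binding site.

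Between 500 µg/mL of Soshiho-tang and vehicle, 7407 of 16872 genes differed at an adjusted p under 0.05 by edgeR's quasi-likelihood test, which is 43.9% of the genes tested. Of these 3851 were higher (22.8%) and 3556 lower (21.1%). Counts of list members called below are to be read against these shares of all genes tested. Most changes were small: 761 genes (4.51%) differed at least 2-fold, 283 higher (1.68%) and 478 lower (2.83%), and 491 of the 761 were protein-coding. The median log2 fold change over all genes tested was 0.006. The 3 extract libraries did not overlap the 3 vehicle libraries in 54.7% of genes, and 42.7% were both called and without overlap.

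At 20 µg/mL the same vehicle libraries gave 3680 called genes (21.8% of those tested), 11.3% higher and 10.5% lower. The direct comparison of 500 with 20 µg/mL gave 4868 (28.9%), 14.6% higher and 14.2% lower. A change is called absent at 20 µg/mL where 500 µg/mL differed from vehicle and, in the same direction, from 20 µg/mL, while 20 µg/mL did not differ from vehicle. This held for 2886 genes, 1520 higher (9.01%) and 1366 lower (8.1%), or 17.1% of the genes tested and 39.0% of the genes called. Their median signed log2 change at 20 µg/mL was 0.032, a value that the rule itself keeps small. For 1463 of them the 95% interval at 20 µg/mL stayed under 50% of the log2 change at 500 µg/mL. A further 2590 genes (15.4%) were called in the same direction at both concentrations, 1323 higher (7.84%) and 1267 lower (7.51%). Among those, 500 and 20 µg/mL did not differ for 1883, the change was larger at 500 µg/mL for 659 and smaller for 48. For 1779 genes neither 20 against vehicle nor 500 against 20 was called, so their place is not settled, and 152 genes were called in opposite directions. Splits of list members into absent and present below are to be read against these numbers, out of 7407 called genes. Of the 761 genes with at least a 2-fold change, 355 were absent at 20 µg/mL. Because both concentrations were set against the same vehicle libraries, a difference present at both, and equal at both, cannot be told apart from a difference between the library sets. A difference that is absent at 20 µg/mL also appears between libraries of 1 set.

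**Figure D1:**
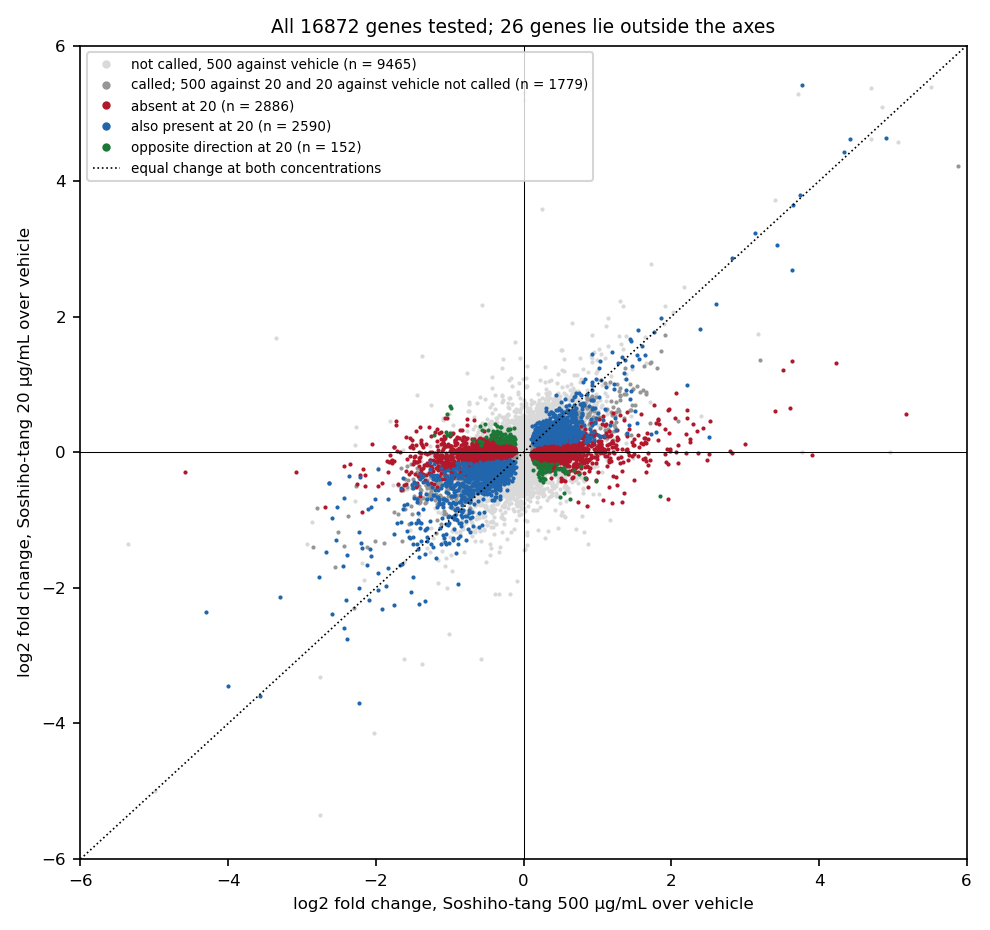
Each point is 1 of 16872 genes, with its log2 fold change for 500 µg/mL over vehicle on the horizontal axis and for 20 µg/mL over vehicle on the vertical axis. The 2886 changes absent at 20 µg/mL lie along the horizontal zero line, near which their definition keeps them. The 2590 changes present at both lie near the diagonal or between it and that line, and both axes share the vehicle libraries.

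Effectors of the integrated stress response rose as a group at 500 µg/mL. Of 16 tested members 13 rose and 1 fell, with a median log2 fold change of 1.18, and all 14 were absent at 20 µg/mL, where the median was -0.079. The expression of ATF4 itself, at 327, 323 and 282 CPM at 500 µg/mL against 156, 149.6 and 135 CPM in vehicle, was 1.08 higher on the log2 scale. TRIB3 (chr20:362835-397559) encodes a pseudokinase that restrains AKT and ATF4. Its 3 libraries stood at 126, 136 and 114 CPM at 500 µg/mL, against 25.2, 24.1 and 24.0 CPM in vehicle, with no overlap (log2 fold change 2.36 ± 0.079 SE, edgeR adjusted p = 2.46e-15). The 20 µg/mL libraries, at 26.7, 24.4 and 21.8 CPM, overlapped vehicle. CHAC1 (chr15:40952962-40956519), which encodes an enzyme that degrades glutathione, gave 20.3, 22.8 and 19.1 CPM at 500 µg/mL against 6.56, 6.11 and 6.38 CPM in vehicle (1.71 ± 0.10, edgeR adjusted p = 1.97e-11), and its log2 change at 20 µg/mL was -0.11 (95% interval -0.35 to 0.12). GDF15 (chr19:18374731-18389176), a stress-induced cytokine that lowers appetite through a brainstem receptor, had the steepest rise of the list (3.90 ± 0.13), with a change of -0.046 (95% interval -0.38 to 0.29) at 20 µg/mL. The transcription factor gene DDIT3 (1.69 ± 0.076), which promotes cell death under lasting stress, SESN2 (1.66 ± 0.055), an inhibitor of mTORC1, and NUPR1 (1.98 ± 0.11), a chromatin-associated stress protein, also rose. PPP1R15A, whose product reverses the translational block, rose by 1.22. VLDLR, a lipoprotein receptor that ATF4 can raise, was the member that fell (-0.38), and the growth-inhibitory DDIT4 (-0.12) and the glycoprotein hormone gene STC2 (-0.077) did not pass the test.

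Amino acid supply followed the same pattern. Of 12 enzymes of amino acid and folate-linked synthesis 11 rose and 0 fell, with a median log2 fold change of 0.73, and 10 of the 11 were absent at 20 µg/mL. ASNS (chr7:97852118-97872542), the enzyme asparagine synthetase, gave 155, 162 and 145 CPM at 500 µg/mL, against 52.7, 52.4 and 48.2 CPM in vehicle. The lowest treated library was far above the highest vehicle library, and the log2 fold change was 1.59 ± 0.056 (edgeR adjusted p = 5.64e-15). With 20 µg/mL ASNS stood at 55.9, 57.7 and 55.5 CPM, a change of 0.14 (95% interval 0.023 to 0.26) that did not pass the test. The serine pathway enzyme genes PSAT1 (1.26 ± 0.079) and PHGDH (0.75 ± 0.074), the transsulfuration genes CBS (1.18 ± 0.077) and CTH (0.73 ± 0.096) and the mitochondrial folate genes ALDH1L2 (1.08 ± 0.082) and MTHFD2 (0.71 ± 0.076) rose together. GPT2, an alanine transaminase, rose by 0.31 at 500 µg/mL and was called lower at 20 µg/mL (-0.23). Of 10 amino acid transporters 6 rose and 1 fell. The cystine carrier SLC7A11 (chr4:138164097-138242349) stood at 305, 302 and 312 CPM at 500 µg/mL, against 116, 131 and 137 CPM in vehicle (1.26 ± 0.072, edgeR adjusted p = 1.08e-11). SLC38A1, a glutamine carrier, rose by 0.77 and was absent at 20 µg/mL, whereas SLC38A2, a related carrier, fell by 0.355 on the log2 scale. SLC3A2, the heavy chain partner of SLC7A11 and SLC7A5, rose at 500 µg/mL (0.68 ± 0.078) and was called lower at 20 µg/mL (-0.26).

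The enzymes that charge tRNAs rose in 15 of 20 cases and fell in 0, with a median of 0.43. Of the 15, 9 were absent at 20 µg/mL, 5 were present there and 1 was not settled. GARS1 (chr7:30594681-30634033), which charges glycine, stood at 392, 395 and 364 CPM at 500 µg/mL, against 199, 209 and 199.7 CPM in vehicle (0.92 ± 0.055, edgeR adjusted p = 2.04e-11), and at 226, 217 and 232 CPM at 20 µg/mL. AARS1, for alanine, had no detectable change at 20 µg/mL (0.016, 95% interval -0.082 to 0.12) beside a rise of 0.86 ± 0.047 at 500 µg/mL. NARS1 and TARS1, for asparagine and threonine, were already higher at 20 µg/mL (0.24 and 0.26) and higher still at 500 µg/mL (0.76 and 0.77). Under 6 of 13 other settings 1 to 3 synthetases were also called lower, 2 of them with RLE in place of TMM size factors.

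Antioxidant genes were in part absent and in part present at 20 µg/mL. Of 13 genes of glutathione and thioredoxin metabolism 9 rose and 0 fell (median 0.56), 6 of them absent at 20 µg/mL and 3 present. SQSTM1 (chr5:179806398-179838078), an autophagy receptor that also frees NRF2 from its inhibitor, stood at 1505, 1601 and 1511 CPM at 500 µg/mL, against 564, 537 and 530.5 CPM in vehicle. The libraries at 20 µg/mL, at 535, 556 and 509.5 CPM, overlapped the vehicle libraries, and the log2 fold change at 500 µg/mL was 1.501 ± 0.053 (edgeR adjusted p = 6.33e-15). OSGIN1, a growth-restraining NRF2 target, rose by 1.39 ± 0.073 with a change of 0.039 (95% interval -0.12 to 0.20) at 20 µg/mL. In contrast, GCLC (chr6:53497341-53616970), the catalytic subunit that makes the first bond of glutathione, was already higher at 20 µg/mL (0.26) and rose by 1.01 at 500 µg/mL. Its partner GCLM stood at 121, 129 and 124 CPM at 500 µg/mL, against 73.9, 75.6 and 74.8 CPM in vehicle, and at 84.6, 91.2 and 82.0 CPM at 20 µg/mL, which lies between both groups. TXNRD1, thioredoxin reductase, likewise rose at both concentrations (0.77 at 500 µg/mL and 0.27 at 20 µg/mL). Of 15 genes for NADPH, quinones and carbonyls 8 rose and 1 fell. NQO1, which reduces quinones, gave 227, 228 and 218 CPM at 500 µg/mL against 170.1, 158 and 153 CPM in vehicle (0.49 ± 0.058, edgeR adjusted p = 7.65e-07), and its estimate at 20 µg/mL was below 0 (-0.13, 95% interval -0.26 to -0.012). AKR1C1 and AKR1C2, near-identical reductase genes between which reads may be divided, both rose by 0.78, and AKR1C1 was called lower at 20 µg/mL (-0.20).

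Genes of heme and iron handling rose in 8 of 11 cases and fell in 0. HMOX1 (chr22:35380361-35394214), whose product heme oxygenase 1 breaks heme down to iron, biliverdin and carbon monoxide, stood at 398, 434 and 386 CPM at 500 µg/mL, against 60.3, 56.6 and 55.6 CPM in vehicle. With 59.0, 56.4 and 56.4 CPM at 20 µg/mL, the low concentration could not be separated from vehicle, and the change at 500 µg/mL was 2.82 ± 0.059 (edgeR adjusted p = 4.11e-19). FTL and FTH1, the light and heavy chains of ferritin, which stores the released iron, are among the most abundant transcripts of these cells. FTL stood at 2928, 3087 and 2607 CPM at 500 µg/mL, against 1365, 1302 and 1196 CPM in vehicle (1.16 ± 0.080). FTH1 stood at 2589, 2778 and 2460.0 CPM at 500 µg/mL, against 1167, 1245 and 1233 CPM in vehicle (1.10 ± 0.081). Both have processed copies in the genome that can take some of their reads. Both were absent at 20 µg/mL, and together with SQSTM1 they had the 3 largest gains in CPM of all genes tested. SLC11A2, an iron importer, was present at both concentrations (0.55 at 500 µg/mL and 0.15 at 20 µg/mL).

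**Figure D2:**
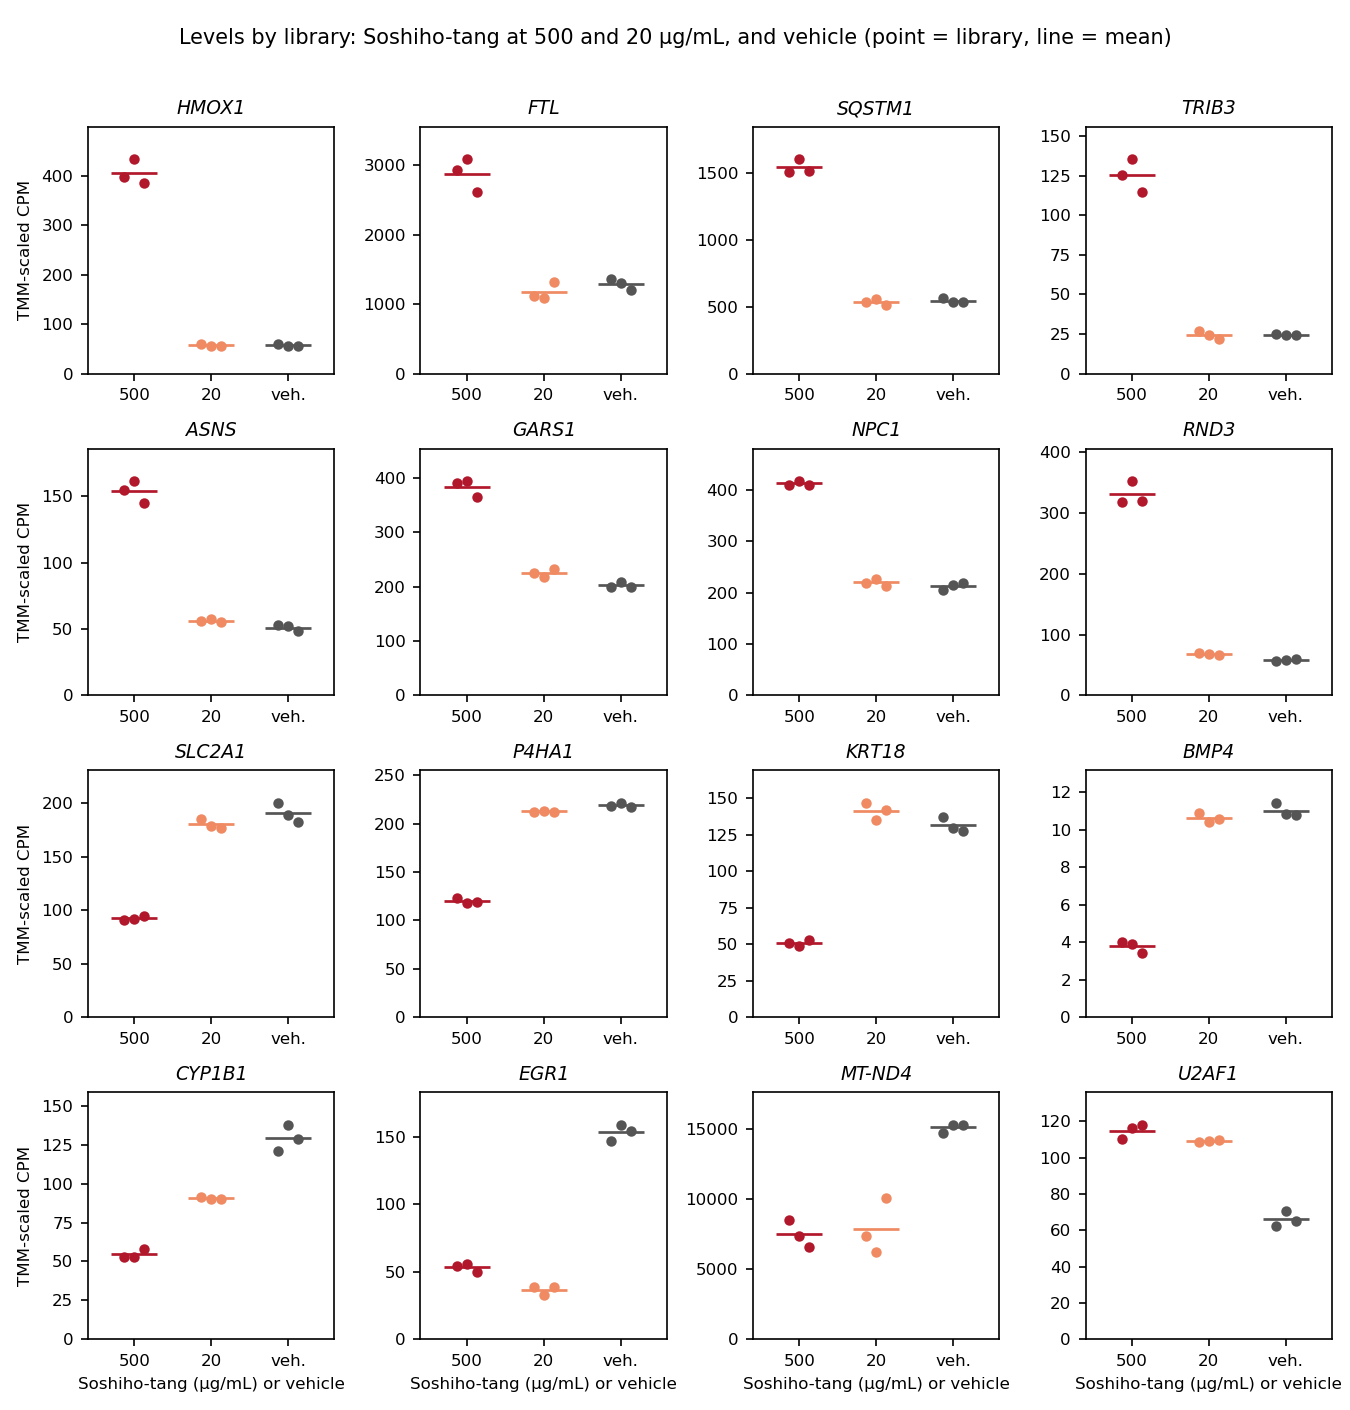
TMM-scaled CPM of 16 genes in each library, with a line at the group mean (n = 3 libraries), for Soshiho-tang at 500 and 20 µg/mL and for vehicle. From HMOX1 to BMP4 the 20 µg/mL points lie near the vehicle points, and in CYP1B1, EGR1, MT-ND4 and U2AF1 they lie nearer the 500 µg/mL points or between both groups.

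Lysosomal genes rose in 17 of 26 cases and fell in 0, with a median of 0.22, and 15 of the 17 were absent at 20 µg/mL. Against 20 µg/mL, within 1 library set, 22 of the 26 were higher, where 14.6% of all genes were. NPC1 (chr18:23506184-23586898), which exports cholesterol from lysosomes, stood at 410.2, 418 and 409.7 CPM at 500 µg/mL, against 206, 215 and 218 CPM in vehicle (0.95 ± 0.054, edgeR adjusted p = 1.01e-11), and at 219, 226 and 214 CPM at 20 µg/mL. GPNMB, a lysosome-associated glycoprotein, rose by 1.65 ± 0.12, the protease gene CTSL by 0.63 ± 0.058 and the proton pump subunit ATP6V1B2 by 0.56 ± 0.049. The calcium channel gene MCOLN1 of the printed promoter rose by 0.51, with 0.029 at 20 µg/mL. The protease gene CTSD was called in opposite directions, 0.20 at 500 µg/mL and -0.32 at 20 µg/mL. RRAGD (chr6:89364636-89412270), a GTPase that brings mTORC1 to the lysosome and a TFEB target, gave 1.84, 1.93 and 1.69 CPM at 500 µg/mL against 0.460, 0.451 and 0.259 CPM in vehicle (2.21 ± 0.29, edgeR adjusted p = 2.65e-06). Autophagy genes as a list were mixed, with 6 of 17 higher and 6 lower. MAP1LC3B, the membrane-bound mark of autophagosomes, rose by 0.67, while the mitophagy receptor BNIP3, also a hypoxia target, fell by 0.99 on the log2 scale.

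Targets of p53 rose in 10 of 18 cases and fell in 0. Of the 10, 5 were absent at 20 µg/mL, against 39.0% of all called genes. GADD45A, a stress sensor in growth arrest, stood at 98.0, 110.1 and 100.1 CPM at 500 µg/mL, against 54.9, 55.2 and 53.3 CPM in vehicle (0.91 ± 0.075), and its change at 20 µg/mL was 0.092 (95% interval -0.066 to 0.25). The death receptor gene TNFRSF10B rose by 0.83 ± 0.061 and is also a target of DDIT3, while the decoy receptor gene TNFRSF10D fell to 27.9, 24.3 and 26.6 CPM at 500 µg/mL, against 53.5, 48.4 and 52.2 CPM in vehicle. PMAIP1, a pro-death member of the BCL2 family, was higher at both concentrations (0.97 at 500 µg/mL and 0.43 at 20 µg/mL), and the survival gene BCL2 rose by 0.69 at 500 µg/mL. Metallothioneins and zinc carriers rose in 4 of 6 cases, among them MT2A at 192, 188 and 170.4 CPM at 500 µg/mL, against 134, 125 and 114 CPM in vehicle (0.56 ± 0.11). MT1E, MT1X and MT2A are closely related genes between which reads may be divided.

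Among the largest single changes absent at 20 µg/mL were genes at low levels that belong to none of these lists. KRT75 (chr12:52424070-52434525), a hair follicle keratin, stood at 1.65, 1.55 and 1.76 CPM at 500 µg/mL, against 0.0418, 0.0410 and 0.172 CPM in vehicle (4.23 ± 0.36, edgeR adjusted p = 6.22e-09). Its libraries at 20 µg/mL, at 0.222, 0.238 and 0.185 CPM, also lay above vehicle, and the interval at 20 µg/mL excluded 0, without passing the test. KCP (chr7:128862451-128910719), which encodes a secreted modulator of BMP signalling, gave 3.81, 5.78 and 4.30 CPM at 500 µg/mL against 0.251, 0.533 and 0.345 CPM in vehicle (3.60 ± 0.31). TM4SF19, a tetraspanin-like membrane protein, stood at 9.76, 10.6 and 10.1 CPM at 500 µg/mL, against 1.38, 1.76 and 1.25 CPM in vehicle, and its change at 20 µg/mL was 0.024 (95% interval -0.33 to 0.38). The hexokinase-domain gene HKDC1 (2.43 ± 0.14), the translation inhibitor EIF4EBP3 (2.26 ± 0.46), ULBP1, a ligand of the natural killer cell receptor NKG2D (2.09 ± 0.24), and the guidance receptor ROBO4 (2.06 ± 0.28) rose as well. PSG7 (3.00 ± 0.35) belongs to a family of near-identical pregnancy glycoprotein genes, and NIPAL4 (2.21 ± 0.42) encodes a magnesium transporter-like protein. ATP6V0D2, a proton pump subunit of osteoclast lysosomes, rose by 3.399 ± 0.36. The vehicle levels of KRT75, PSG7, ATP6V0D2, KCP, NIPAL4 and EIF4EBP3 rest on few counts in some or all libraries, so the size of their fold changes is uncertain. EIF4EBP3, for example, stood at 0.710, 0.082 and 0.560 CPM in vehicle.

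**Figure D3:**
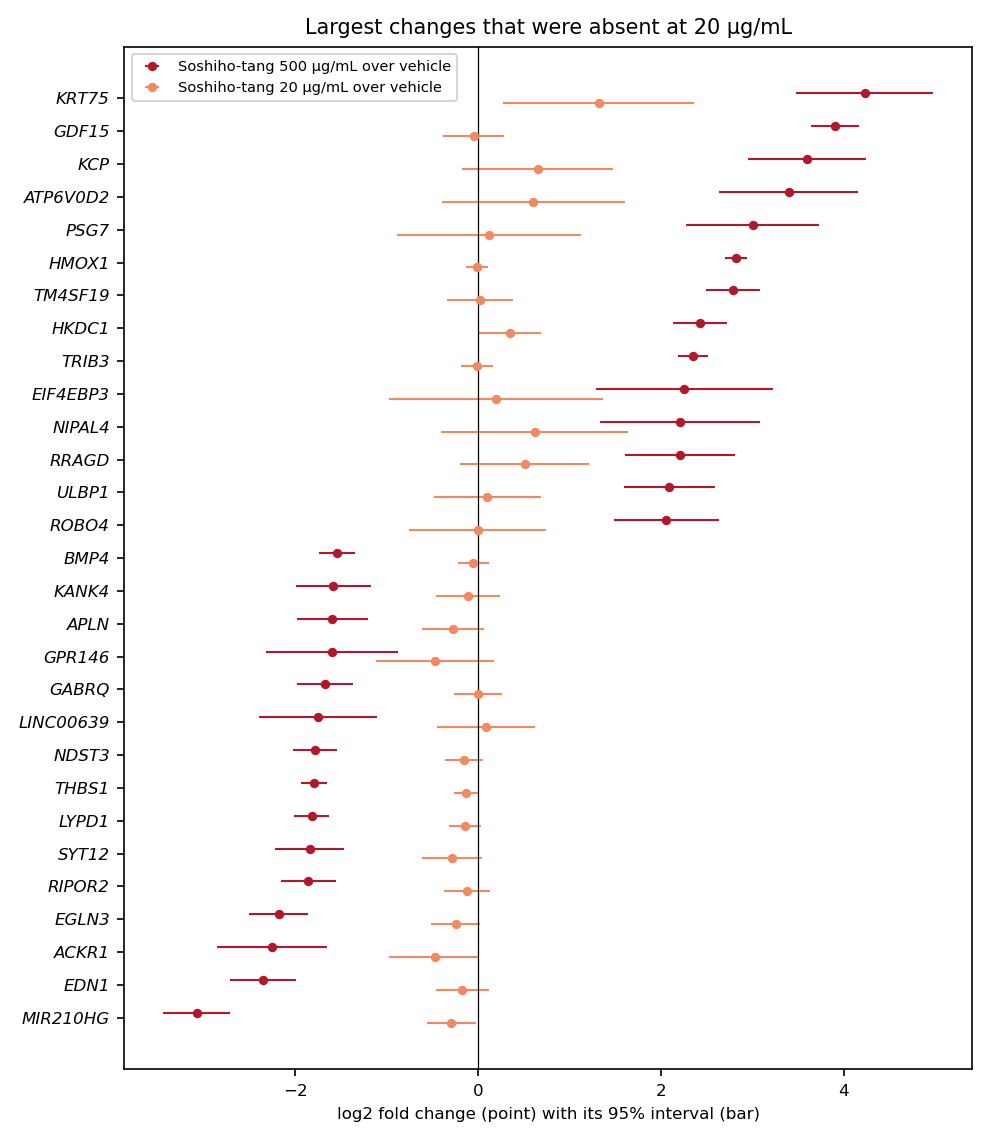
Steepest log2 fold changes among changes absent at 20 µg/mL, 14 higher and 15 lower, for genes of at least 1 CPM, with points for 500 and 20 µg/mL over vehicle and bars for their 95% intervals. The intervals at 500 µg/mL lie well away from 0, and those at 20 µg/mL include or nearly reach 0 except for KRT75, whose interval runs from 0.28 to 2.37.

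Matrix genes fell together. None of 19 collagen chains rose and 16 fell (median -0.47), 0 of 30 matrix glycoproteins rose and 22 fell (median -0.45), and 0 of 18 genes of collagen modification rose and 16 fell (median -0.39). The summed level of the 19 collagens was 7651 to 8237 CPM at 500 µg/mL, against 13340 to 13950 CPM in vehicle. COL1A1 (chr17:50183289-50201632), the main chain of type I collagen, stood at 1777, 1550.0 and 1626 CPM at 500 µg/mL, against 4018, 3999 and 3784 CPM in vehicle (-1.25 ± 0.059, edgeR adjusted p = 6.06e-13). The libraries at 20 µg/mL, at 3249, 2966 and 3093 CPM, lay between both groups and were called lower (-0.34, 95% interval -0.46 to -0.22). COL1A2, COL3A1 and COL5A1 behaved alike: each was lower at 20 µg/mL (-0.17, -0.24 and -0.24) and lower still at 500 µg/mL (-1.22, -1.27 and -1.11). Of the 16 collagens that fell, 7 were present and 6 absent at 20 µg/mL, the latter a share near the 39.0% of all called genes.

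THBS1 (chr15:39581079-39599466), the matrix glycoprotein thrombospondin 1, which activates latent TGF-beta and restrains vessel growth, stood at 577, 523 and 630.1 CPM at 500 µg/mL, against 1893, 1948 and 2150.0 CPM in vehicle. Libraries at 20 µg/mL gave 1880.0, 1938 and 1673 CPM, overlapping vehicle, and the change at 500 µg/mL was -1.79 ± 0.069 (edgeR adjusted p = 2.91e-14). VCAN, a large proteoglycan, gave 359, 321 and 339 CPM at 500 µg/mL against 580.4, 673 and 709 CPM in vehicle (-0.94 ± 0.089), and FN1, fibronectin, gave 3278, 3014 and 3091 CPM at 500 µg/mL against 4334, 4863 and 4871 CPM in vehicle (-0.58 ± 0.094). Both were absent at 20 µg/mL by the tests, although their estimates there were also below 0 (-0.19 and -0.23). TGFBI, a collagen-binding protein, and HSPG2, the basement membrane proteoglycan perlecan, were lower at both concentrations. Among modifying enzymes, P4HA1 (chr10:73007217-73096974), which hydroxylates proline in collagen, stood at 124, 118 and 119 CPM at 500 µg/mL, against 218, 222 and 217 CPM in vehicle (-0.87 ± 0.039, edgeR adjusted p = 2.78e-13), with -0.043 (95% interval -0.12 to 0.036) at 20 µg/mL. PLOD2, a lysyl hydroxylase, fell by 0.59 on the log2 scale and was likewise absent at 20 µg/mL.

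Of 20 proteases and inhibitors 11 were called lower, where 21.1% of all genes were. Another 5 were called higher, a share near the 22.8% of all genes. The collagenase gene MMP1 rose to 44.5, 47.0 and 53.1 CPM at 500 µg/mL, against 33.7, 32.8 and 32.4 CPM in vehicle (0.55 ± 0.074), and MMP3, stromelysin, rose by 0.68. The gelatinase gene MMP2 fell (-0.58 ± 0.065). The count of members higher was 3 without replicate 1 at 500 µg/mL and 3 without replicate 3 of vehicle. Integrins fell in 7 of 15 cases and rose in 2. ITGB3, a subunit that binds vitronectin and fibronectin, rose and stood at 23.8, 26.1 and 24.8 CPM at 500 µg/mL, against 10.8, 11.5 and 11.8 CPM in vehicle (1.13 ± 0.085, edgeR adjusted p = 7.05e-10), while ITGB8, a subunit that activates TGF-beta, fell by 0.83 on the log2 scale. ITGA11, a collagen-binding subunit, was lower at both concentrations.

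Signalling genes around the matrix were also lower. Of 19 genes of TGF-beta and endothelin signalling 13 fell and 3 rose, and 8 of the 13 were absent at 20 µg/mL. Among ligands, EDN1 (chr6:12290363-12297194), the precursor of endothelin 1, stood at 0.646, 0.811 and 0.882 CPM at 500 µg/mL, against 4.26, 3.77 and 3.88 CPM in vehicle, with no overlap and a change of -2.35 ± 0.17 (edgeR adjusted p = 5.76e-10). The 20 µg/mL libraries gave 3.73, 3.52 and 3.34 CPM, a change of -0.17 (95% interval -0.46 to 0.12). TGFB3 (-1.31 ± 0.082) and TGFB2 (-0.78 ± 0.10), ligands of the TGF-beta receptors, fell, and so did PMEPA1, a target that dampens the pathway (-0.82 ± 0.046). Of 13 genes of BMP signalling and its ID targets 10 fell and 2 rose (median -0.78). BMP4 stood at 4.01, 3.92 and 3.42 CPM at 500 µg/mL, against 11.4, 10.8 and 10.8 CPM in vehicle (-1.54 ± 0.093, edgeR adjusted p = 2.68e-11), and ID2, an inhibitor of helix-loop-helix factors that BMPs raise, fell by 1.03 on the log2 scale. Both had intervals around 0 at 20 µg/mL (-0.051, 95% interval -0.22 to 0.12, for BMP4 and 0.12, 95% interval -0.039 to 0.28, for ID2). The ligand gene BMP2, in contrast, rose to 1.71, 1.52 and 1.32 CPM at 500 µg/mL, against 0.919, 0.492 and 0.517 CPM in vehicle (1.24 ± 0.24).

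Genes that YAP and SRF drive fell in 15 of 20 cases and rose in 2, and 11 of the 15 were absent at 20 µg/mL. CCN2 (chr6:131948176-131951373), a matricellular growth factor and classical YAP target, stood at 85.4, 101.4 and 92.6 CPM at 500 µg/mL, against 176, 172 and 166 CPM in vehicle (-0.88 ± 0.068, edgeR adjusted p = 1.16e-09). The actin-binding gene CNN2 fell by 0.74 and ACTB, beta-actin, by 0.43 on the log2 scale. CNN1 fell as well (-0.55 ± 0.17), a call that was lost without replicate 1 of vehicle (edgeR adjusted p = 0.0653) or replicate 2 of vehicle (edgeR adjusted p = 0.0519). Opposed to this group was RND3 (chr2:150468195-150539011), an atypical small GTPase that loosens actin stress fibres by blocking ROCK1. It stood at 319, 353 and 320.2 CPM at 500 µg/mL, against 56.8, 57.4 and 59.9 CPM in vehicle (2.51 ± 0.046, edgeR adjusted p = 6.43e-20), and was also called at 20 µg/mL with a much smaller change (0.23, 95% interval 0.14 to 0.33). Keratin 18, the partner of keratin 8 in simple epithelia, is expressed in these cells as well. Its gene KRT18 (chr12:52948871-52952901) stood at 51.0, 48.9 and 52.5 CPM at 500 µg/mL, against 137, 129 and 127 CPM in vehicle (-1.37 ± 0.061), and KRT8 fell by 0.65 on the log2 scale.

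Hypoxia-responsive genes fell in 13 of 20 cases and rose in 4, and glycolytic genes fell in 13 of 20 and rose in 2. The 4 hypoxia genes that rose were a share near the 22.8% of all genes called higher. MIR210HG (chr11:565660-568457), the host transcript of a hypoxia-induced microRNA, had the steepest fall among changes absent at 20 µg/mL in genes of at least 1 CPM, with 0.388, 0.541 and 0.515 CPM at 500 µg/mL against 4.30, 3.93 and 4.01 CPM in vehicle (-3.08 ± 0.18, edgeR adjusted p = 1.15e-11). EGLN3 (chr14:33924231-34462774), an oxygen-sensing hydroxylase that marks HIF for destruction and is itself a HIF target, gave 1.42, 1.76 and 1.18 CPM at 500 µg/mL against 7.31, 6.11 and 6.46 CPM in vehicle (-2.18 ± 0.15). Neither was called at 20 µg/mL (-0.29, 95% interval -0.56 to -0.026, for MIR210HG and -0.24, 95% interval -0.51 to 0.019, for EGLN3). The glucose transporter gene SLC2A1 stood at 91.2, 91.5 and 94.5 CPM at 500 µg/mL, against 200.4, 189 and 183 CPM in vehicle (-1.04 ± 0.052), and LDHA, which turns pyruvate into lactate, fell by 0.675 on the log2 scale. CA9, a cell-surface carbonic anhydrase, was lower at both concentrations (-1.36 at 500 µg/mL and -0.43 at 20 µg/mL). TXNIP, which limits glucose uptake, rose by 0.53 ± 0.086 at 500 µg/mL.

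Lipid synthesis genes fell at 500 µg/mL and several cholesterol genes were higher at 20 µg/mL. Of 25 cholesterol genes 14 fell and 1 rose at 500 µg/mL, whereas at 20 µg/mL 8 were higher and 2 lower than vehicle, where 11.3% and 10.5% of all genes were. Directly compared, 16 of the 25 were lower at 500 than at 20 µg/mL and 0 higher, where 14.2% of all genes were lower. INSIG1, which holds the sterol sensor SCAP in the endoplasmic reticulum, stood at 92.8, 94.2 and 91.9 CPM at 500 µg/mL, against 133, 144 and 136 CPM in vehicle (edgeR adjusted p = 2.90e-10). It was called in the opposite direction at 20 µg/mL, with 153, 153 and 153 CPM (-0.56 at 500 µg/mL and 0.15 at 20 µg/mL). IDI1, SQLE and STARD4 were called in opposite directions too. HMGCS1, an early enzyme of the pathway, did not differ at 500 µg/mL by the test (0.034) and was higher at 20 µg/mL (0.42). Of 14 fatty acid genes 6 fell and 1 rose, among the lower FASN, fatty acid synthase (-0.66 ± 0.073), and SCD, a desaturase (-0.52 ± 0.054).

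Mitotic genes fell in 27 of 32 cases at 500 µg/mL and rose in 0, with a median of -0.26. At 20 µg/mL 12 of the 32 were higher and 0 lower than vehicle (median 0.13), where 11.3% of all genes were higher. Against 20 µg/mL, 31 of the 32 were lower at 500 µg/mL, where 14.2% of all genes were. KIF20A (chr5:138178719-138187715), a kinesin of cytokinesis, stood at 73.1, 72.1 and 73.4 CPM at 500 µg/mL, against 136, 147 and 142 CPM in vehicle (-0.96 ± 0.066, edgeR adjusted p = 1.94e-10), and at 137, 136 and 149 CPM at 20 µg/mL. MKI67, the proliferation marker Ki-67, whose promoter is among those printed, gave 204, 173 and 182 CPM at 500 µg/mL against 363, 412 and 417 CPM in vehicle (-1.09 ± 0.13), and its interval at 20 µg/mL included 0 (-0.25, 95% interval -0.52 to 0.024). CCNA2, cyclin A2, was 1 of 8 members called in opposite directions, with 66.0, 59.9 and 64.2 CPM at 500 µg/mL, against 71.9, 75.5 and 73.5 CPM in vehicle, and 90.7, 91.7 and 93.9 CPM at 20 µg/mL. CDK1, the kinase that drives mitosis, did not pass the test at 500 µg/mL (0.003 ± 0.066) and was higher at 20 µg/mL (0.26). Genes of DNA replication fell in 15 of 38 cases and rose in 5, where 21.1% of all genes were called lower and 22.8% higher. Among the lower were TYMS, which makes thymidylate (-0.57 ± 0.065), and the cell cycle factor E2F2 (-0.83 ± 0.11). Without the filter on low counts 9 replication genes were lower. In these bulk libraries, fewer cells of a kind, such as cycling cells, and less RNA per cell cannot be told apart.

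Chemokine genes changed in both directions. Of 11 chemokines 5 rose and 4 fell, where 22.8% of all genes were called higher and 21.1% lower. Of 21 NF-kB targets and cytokines 10 rose, and the 4 that fell were a share near that of all genes. CXCL8, which draws neutrophils, stood at 9.18, 9.43 and 11.3 CPM at 500 µg/mL, against 3.38, 3.28 and 3.06 CPM in vehicle (1.62 ± 0.14, edgeR adjusted p = 3.91e-09), and CXCL2 and CXCL5, of the same chemokine class, rose by 1.97 and 1.97. CCL2, which draws monocytes, fell to 3.81, 3.75 and 3.68 CPM at 500 µg/mL, against 10.4, 10.7 and 11.03 CPM in vehicle (-1.51 ± 0.15). The cytokine genes LIF (1.400 ± 0.084) and IL6 (0.89 ± 0.16) and the adhesion receptor gene ICAM1 (1.00 ± 0.064) rose, and all 3 were absent at 20 µg/mL. Interferon-stimulated genes rose in 10 of 30 cases and fell in 3, led by the antiviral genes IFIT2 (1.07 ± 0.16) and MX1 (0.81 ± 0.13). Feedback regulators and ligands of the ERK pathway rose in 12 of 20 and fell in 4. The EGF receptor ligand gene EREG rose by 1.26 ± 0.21, the receptor gene EPHA2 fell by 0.88 on the log2 scale, and the ERK phosphatase gene DUSP5 was called higher at 500 µg/mL (0.83) and lower at 20 µg/mL (-0.38).

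Further steep falls absent at 20 µg/mL came from genes of varied function. LYPD1, a small membrane protein that binds nicotinic receptors, stood at 12.2, 10.7 and 10.5 CPM at 500 µg/mL, against 39.1, 41.1 and 37.9 CPM in vehicle (-1.82 ± 0.093, edgeR adjusted p = 2.32e-12). NDST3, an enzyme of heparan sulfate, gave 2.71, 2.23 and 2.500 CPM at 500 µg/mL against 8.48, 8.23 and 8.88 CPM in vehicle (-1.78 ± 0.12). RIPOR2, an inhibitor of RHOA (-1.85 ± 0.14), the synaptotagmin gene SYT12 (-1.84 ± 0.18), GABRQ, a GABA receptor subunit (-1.67 ± 0.15), ACKR1, a chemokine-binding receptor (-2.26 ± 0.29), and APLN, the peptide apelin (-1.59 ± 0.19), were lower. KANK4 (-1.58 ± 0.20), GPR146 (-1.60 ± 0.35) and the non-coding LINC00639 (-1.75 ± 0.31) fell as well. All of these stood under 5 CPM in vehicle except LYPD1 and NDST3.

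A different set of changes was called at 20 µg/mL as well. Mitochondrially encoded transcripts fell in 12 of 13 cases at 500 µg/mL (median -0.84) and in 11 of 13 at 20 µg/mL (median -0.78), and 0 of 13 differed between 500 and 20 µg/mL by edgeR. MT-ND4 (chrM:10760-12137), a subunit of respiratory complex I, stood at 8491, 7373 and 6573 CPM at 500 µg/mL, against 14690.0, 15310.0 and 15320.0 CPM in vehicle (-1.01 ± 0.19, edgeR adjusted p = 0.000173), and at 7335, 6231 and 10070.0 CPM at 20 µg/mL. MT-ATP8 and MT-ND6 had the steepest falls (-1.45 and -1.39 at 500 µg/mL, -1.35 and -1.31 at 20 µg/mL). MT-ATP8 and MT-ND4L overlap neighbouring genes, and MT-ND6 lies on the other strand, so their reads depend on the counting. Of 37 nuclear genes of the respiratory chain 10 were called higher and 1 lower (median 0.10), a share of higher calls near the 22.8% of all genes. Among the list members UQCRB was higher at both concentrations (0.68 at 500 µg/mL and 0.63 at 20 µg/mL). NDUFB1, a complex I subunit that is not in this list, was also called higher at both (1.11 at 500 µg/mL and 0.96 at 20 µg/mL). The count of 10 list members was 4 without replicate 3 of vehicle and 16 without the filter on low counts. Of 45 ribosomal protein genes 13 were called higher and 3 lower (median 0.06), again near the share of all genes called higher. The 13 became 8 without replicate 3 of vehicle, and the 3 became 1 without replicate 2 at 500 µg/mL and 7 when only the groups compared were fitted.

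Of 23 immediate early genes 10 fell at 500 µg/mL, where 21.1% of all genes were called lower (median of the list -0.03). Another 5 rose, a share near the 22.8% of all genes called higher. At 20 µg/mL 13 fell and 0 rose (median -0.33), and 9 were higher and 2 lower at 500 than at 20 µg/mL. EGR1 (chr5:138465490-138469315), a transcription factor made within minutes of growth factor stimulation, stood at 54.1, 55.9 and 49.9 CPM at 500 µg/mL, against 147, 159 and 154 CPM in vehicle (-1.52 ± 0.086, edgeR adjusted p = 1.00e-11). At 20 µg/mL it was lower still, at 38.6, 32.8 and 38.8 CPM (-2.06, 95% interval -2.25 to -1.88), and 500 and 20 µg/mL differed by 0.54 ± 0.090 (edgeR adjusted p = 7.25e-05). ATF3, which also belongs to the stress response, was 1 of the 5 that rose, with 6.85, 8.31 and 7.06 CPM at 500 µg/mL, against 2.55, 2.58 and 3.19 CPM in vehicle (1.42 ± 0.15) and no detectable change at 20 µg/mL. Clock genes fell in 11 of 18 cases and rose in 3. NR1D1, the heme-binding repressor REV-ERB alpha, stood at 52.4, 52.4 and 51.4 CPM at 500 µg/mL, against 97.6, 96.5 and 102 CPM in vehicle (-0.92 ± 0.11), and at 48.5, 42.1 and 58.6 CPM at 20 µg/mL, and DBP and PER1 were lower at both concentrations as well. No harvest time of day was given in the labels used here.

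Targets of the aryl hydrocarbon receptor, a sensor of planar aromatic compounds, fell in 4 of 7 cases and rose in 1. CYP1B1 (chr2:38066973-38109902), a cytochrome P450 that oxidises estrogens and polycyclic aromatics, stood at 53.02, 52.6 and 58.1 CPM at 500 µg/mL, against 121, 138 and 129 CPM in vehicle (-1.25 ± 0.054, edgeR adjusted p = 2.49e-13). With 20 µg/mL it gave 91.5, 90.0 and 90.1 CPM, between both groups, and the 500 and 20 µg/mL libraries differed by -0.73 ± 0.054 (edgeR adjusted p = 1.01e-09). AHRR, the receptor's own repressor, gave 18.8, 18.7 and 20.6 CPM at 500 µg/mL against 44.9, 45.6 and 44.1 CPM in vehicle (-1.22 ± 0.069), with -0.62 at 20 µg/mL. CYP1A1, usually the most responsive target, did not exceed 1.21 CPM in any of these libraries. It stood at 0.517, 0.237 and 0.331 CPM at 500 µg/mL, against 1.21, 1.11 and 1.16 CPM in vehicle (-1.66 ± 0.29). Heat shock genes fell in 12 of 16 cases and rose in 1, 6 of these 13 being present at 20 µg/mL. HSPA1A and HSPA1B, near-identical genes of the inducible chaperone HSP70, were both lower at 500 µg/mL (-0.48 and -0.55) and at 20 µg/mL (-0.33 and -0.69). Proteasome subunits rose in 14 of 27 cases and fell in 0. None of the 14 was absent at 20 µg/mL, 8 were present there and 6 were not settled. PSMD12, a subunit of the regulatory lid, gave 156, 156 and 158 CPM at 500 µg/mL against 118, 118 and 116 CPM in vehicle (0.42 ± 0.041), with 0.30 at 20 µg/mL.

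Single genes of this kind included abundant nuclear RNAs. MALAT1 (chr11:65497688-65506516), a long non-coding RNA of nuclear speckles, stood at 1314, 1764 and 1590.0 CPM at 500 µg/mL, against 977, 761 and 919.8 CPM in vehicle (0.81 ± 0.12, edgeR adjusted p = 1.70e-05), and at 1297, 1606 and 1414 CPM at 20 µg/mL. NEAT1, the scaffold RNA of paraspeckles, rose at both concentrations and more at 500 µg/mL (1.08 at 500 µg/mL and 0.47 at 20 µg/mL). U2AF1, a splicing factor gene with a near-identical copy between which reads may be divided, gave 110.2, 116 and 118 CPM at 500 µg/mL against 62.2, 70.5 and 65.1 CPM in vehicle, and 109, 109 and 109.9 CPM at 20 µg/mL. C7orf25 (1.47), FMC1 (0.94), GAR1 (1.02), a protein of small nucleolar ribonucleoproteins, and ZNF662 (0.96) were higher to a like extent at 20 µg/mL (1.27, 0.78, 0.81 and 0.65). C7orf25 and FMC1 overlap read-through genes. CD72 also rose (0.89 ± 0.24), a call that was lost without replicate 2 of vehicle (edgeR adjusted p = 0.0593). Among the lower were NKD1, an antagonist of WNT signalling (-2.39 at 500 µg/mL and -1.51 at 20 µg/mL), MEF2B (-2.06 and -1.53), ZFHX2 (-1.42 and -1.54), CNKSR1 (-1.31 and -1.12) and LINC02887 (-1.31 and -1.25), whose call was lost without replicate 3 at 500 µg/mL (edgeR adjusted p = 0.0619). MEF2B varied in vehicle, at 1.34, 0.328 and 1.68 CPM. Its libraries at 20 µg/mL, at 0.407, 0.238 and 0.519 CPM, overlapped vehicle, and its standard error at 500 µg/mL was 0.52. TUBA1B-AS1, antisense to an alpha-tubulin gene, stood at 0 to 2.08 CPM of the library total in the other 27 libraries of the series and at 154 to 191 CPM in vehicle. Values that were not whole numbers made up 9.50% to 9.73% of gene entries at 500 µg/mL, against 10.6% to 10.7% in vehicle, and 9.39% to 9.89% at 20 µg/mL. Antisense genes as a class held 0.270% to 0.312% of counts in the others and 0.291% to 0.298% in vehicle. Reads of the gene and its antisense partner can be told apart only where the counting used strand, which is not given in the sources used here. The part of the library set in the changes present at both concentrations was not tested.

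**Figure D4:**
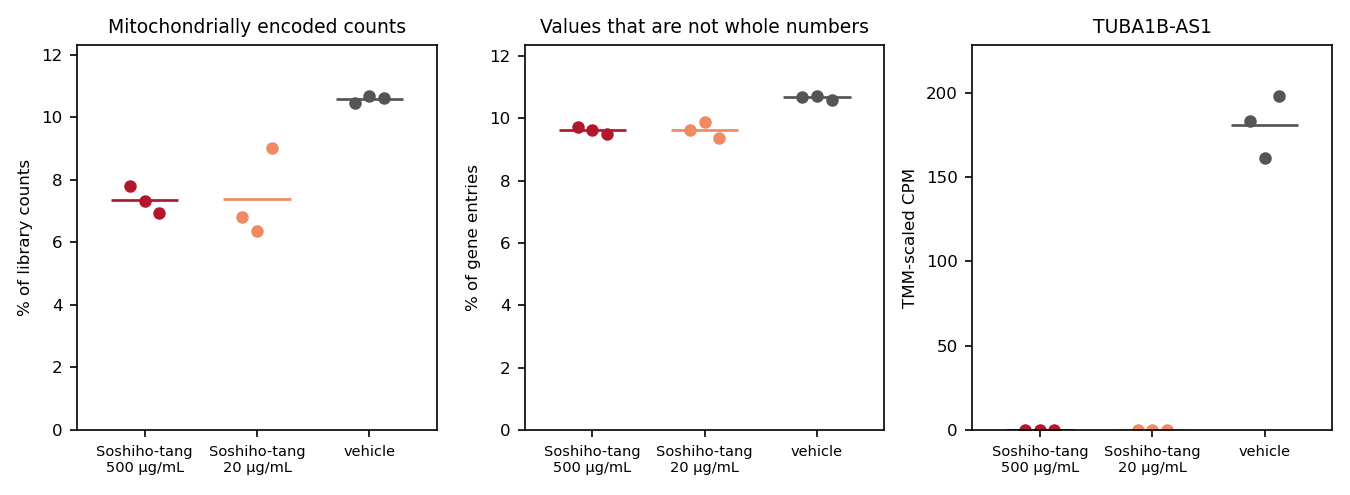
Mitochondrially encoded counts as a percentage of each library, gene entries with values that are not whole numbers as a percentage of all entries, and TMM-scaled CPM of TUBA1B-AS1, for each library (point) with the group mean (line, n = 3). The vehicle libraries lie above all Soshiho-tang libraries in each panel, and the 500 and 20 µg/mL libraries overlap.

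**Figure D5:**
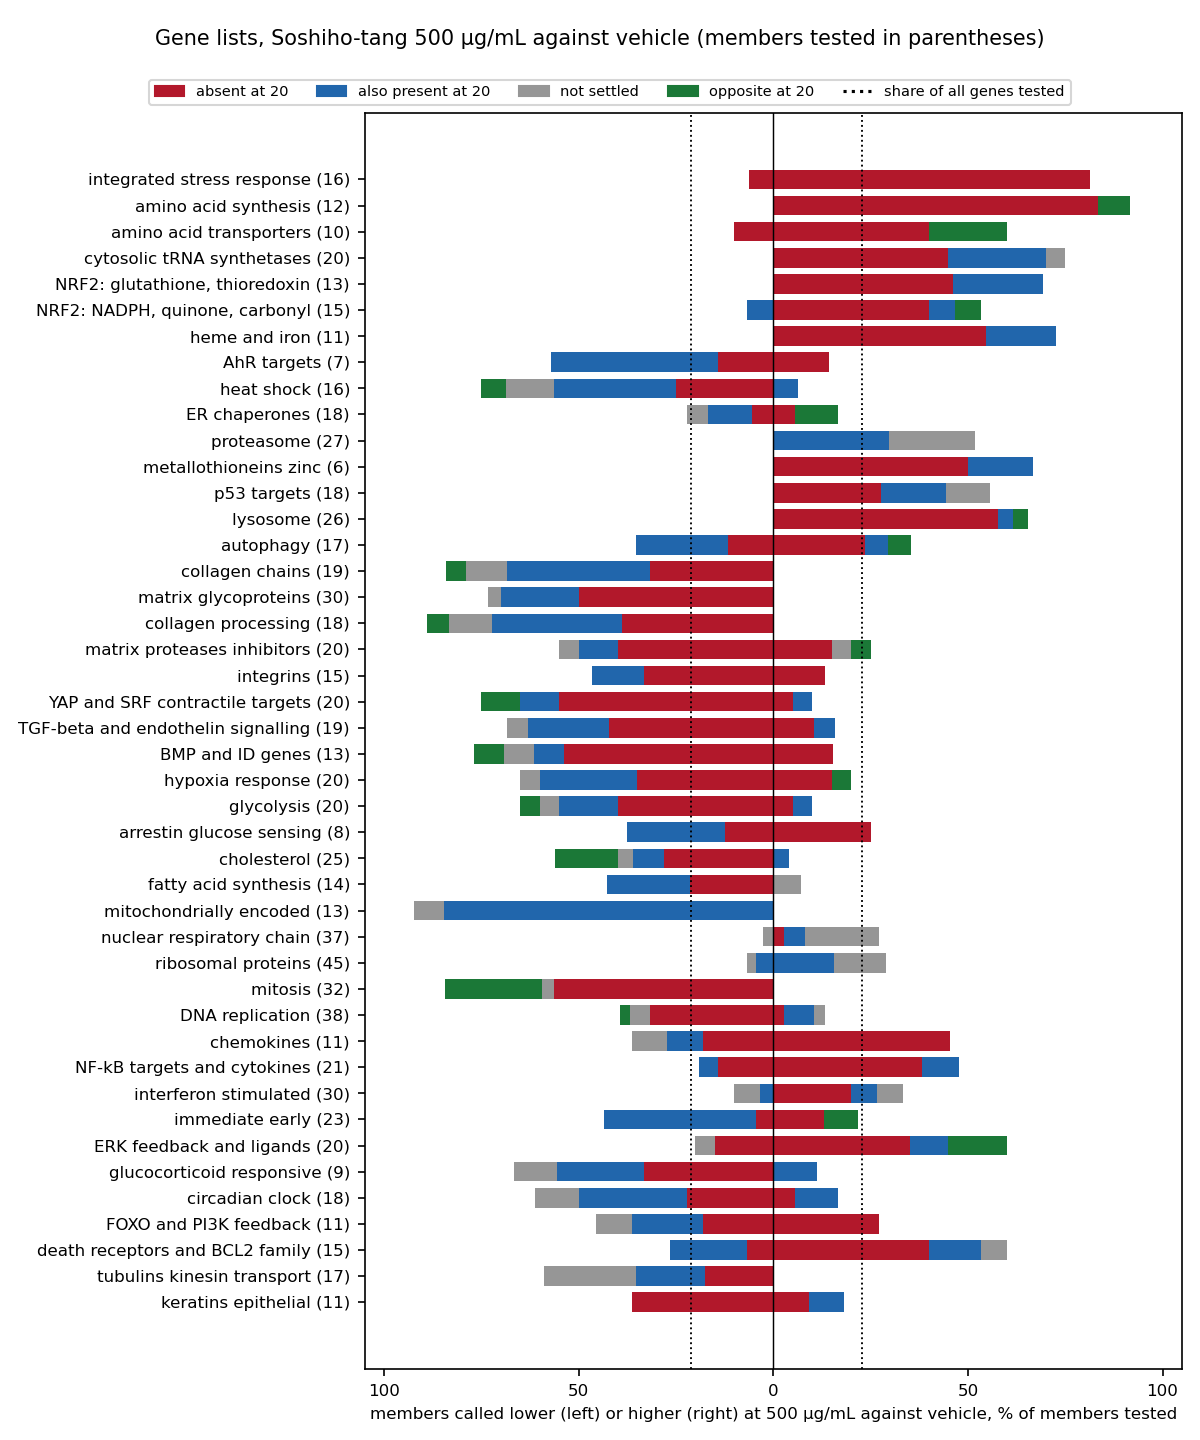
For each gene list, the percentage of tested members called higher (right) or lower (left) at 500 µg/mL against vehicle, coloured by whether the change was absent at 20 µg/mL, also present, opposite or not settled, with dotted lines at 22.8% and 21.1% for all genes tested. Integrated stress, amino acid, lysosome and mitosis lists are mostly absent at 20 µg/mL (in red), and mitochondrially encoded genes are mostly present (in blue).

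Summed over genes, the nuclear genes with a higher mean at 500 µg/mL than in vehicle gained 61010 CPM and those with a lower mean fell by 100900 CPM. The mitochondrially encoded sum was 70720 CPM at 500 µg/mL, against 110300 CPM in vehicle. TMM-scaled CPM do not add up to the same total in each library, so these gains and losses need not balance. The TMM factors were 0.956 to 0.965 in vehicle and 1.03 to 1.05 at 500 µg/mL, which raises CPM in vehicle relative to 500 µg/mL. ACTB, COL1A1, FN1, TGFBI, THBS1, COL5A1, FLNA and GAPDH had the 8 largest losses among nuclear genes. ACTB (chr7:5527147-5563784) stood at 7128, 6836 and 6736 CPM at 500 µg/mL, against 9422, 9563 and 8871 CPM in vehicle, and GAPDH (chr12:6533927-6538374) at 3103, 2928 and 2881 CPM at 500 µg/mL, against 4430.0, 4176 and 4046 CPM in vehicle. Both genes often serve as references for normalisation. ACTB (-0.43 ± 0.053) and GAPDH (-0.51 ± 0.065) were absent at 20 µg/mL by the tests, and FLNA, an actin cross-linker, was lower at both concentrations (-0.43 at 500 µg/mL and -0.22 at 20 µg/mL). TMSB4X, a small actin-sequestering protein, rose to 1988, 1851 and 1929 CPM at 500 µg/mL, against 1499, 1360.0 and 1344 CPM in vehicle (0.46 ± 0.095).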

How the data were processed

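RNA of SW1783 cells was sequenced as directional, paired-end libraries, per the labels' protocols. The authors deposited 1 table of RSEM expected counts for 60675 gene entries and 30 libraries. It was made with FastQC 0.11.9, Trim Galore 0.6.5, STAR 2.7.3a and RSEM 1.3.3 on hg38/GRCh38, per the submitters' processing notes. The annotation release and the strand setting are not given in the sources used here. A further 30 columns without a name or values were not used. Expected counts split reads between similar genes, which makes near-identical copies uncertain. Symbols and gene coordinates are from GENCODE v29 on GRCh38, which matched 57055 entries.

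Counts were rounded to whole numbers. Genes were kept by filterByExpr (minimum count 10, minimum total 15) and tested with edgeR 4.0.16 (quasi-likelihood F-test, limma 3.58.1, R 4.3.3) with TMM factors, in 1 fit of 21 libraries (vehicle and the Soshiho-tang and Yijin-tang groups). P-values were adjusted by Benjamini-Hochberg over all 16872 genes, separately for each comparison, and a gene was called at an adjusted p under 0.05. A log2 fold change is 500 µg/mL over vehicle unless another pair is named, ± is its standard error after a fold change, and 95% intervals come from the same fit. Intervals and depth cover the spread of these libraries and counting error only. The fit was tested on simulated data. DESeq2 1.42.0 was an alternative.

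Named genes are the steepest changes absent or present at 20 µg/mL, the steepest members of each list, and genes with the largest gain or loss of CPM. The gene lists, the comparison and the named genes were chosen with earlier results of these data known. Genes added to a paragraph to complete its list, including those of the printed promoters, were chosen after their values were seen. Same-numbered libraries deviated together with correlations of only -0.173 to 0.043, so the replicate numbers were not used to pair libraries. A few genes that the rule names are not reported here.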

Additional observations from a re-analysis of the deposited data

Results flagged for a closer look

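In 3 genes of at least 1 CPM the changes at 500 and 20 µg/mL ran in opposite directions and were among the largest such pairs, with the difference tested by the comparison of 500 with 20 µg/mL. THBD, the thrombin receptor thrombomodulin, stood at 33.8, 33.9 and 34.2 CPM at 500 µg/mL, against 10.2, 8.48 and 9.52 CPM in vehicle, and at 5.69, 5.90 and 6.45 CPM at 20 µg/mL. It changed on the log2 scale by 1.853 at 500 µg/mL and -0.644 at 20 µg/mL, and 500 and 20 µg/mL differed by 2.497 ± 0.094 (edgeR adjusted p = 2.00e-14). On the same scale the non-coding LINC01910 changed by -0.996 at 500 µg/mL and 0.687 at 20 µg/mL, a difference of -1.68 ± 0.21 (edgeR adjusted p = 2.88e-06). ID4, an inhibitor of helix-loop-helix factors, had -0.985 at 500 µg/mL and 0.646 at 20 µg/mL, a difference of -1.63 ± 0.16 (edgeR adjusted p = 9.73e-08). All 3 share the vehicle libraries between both changes.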

How the results depend on the processing

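Of the counts over all genes, 2 moved by more than 1.5 times. The genes also present at 20 µg/mL were 1402 at an adjusted p under 0.01, in place of 2590, and the genes changed at least 2-fold were 491 when only protein-coding genes were counted, in place of 761. Counting protein-coding genes alone was chosen after seeing the data. Leaving out 1 library at a time gave 6395 to 6747 called genes for 500 µg/mL against vehicle, 699 to 787 with at least a 2-fold change, 2734 to 3022 for 20 µg/mL against vehicle, 3814 to 4286 for 500 against 20 µg/mL, 2322 to 2949 absent at 20 µg/mL and 1984 to 2374 present. Without replicate 3 at 20 µg/mL, which stood apart, 2792 were absent and 2179 present. DESeq2 called 6876 genes, and without the filter on low counts 1052 changed at least 2-fold. Higher genes made up 50.86% to 52.91% of the calls across settings, and no named gene or count over all genes changed direction. With the replicate number as a block 7432 genes were called, 7306 of them shared with the fit without it, and 2871 were absent and 2631 present at 20 µg/mL. Of 2972 values of named genes under the alternatives, 15 lost their call and kept their direction. Besides CD72, LINC02887, CNN1 and VIM they were PSMB1, SLC30A1, PHLDA3, ITGA10, ARRDC1 and NDUFA4, each without 1 library. Of the counts of list members, 64 moved and 1234 did not. ER chaperones called lower were 2 in place of 4 without replicate 2 or 3 at 500 µg/mL or replicate 2 of vehicle, and mesenchymal markers called higher were 2 in place of 4 without replicate 1 of either group. Values under about 1 CPM rest on few counts, and changes smaller than the spread between 3 libraries were not detectable at this depth.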
